A study of Mus musculus with 8 samples.

Results

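The 36 genes described here encode the proteins that build the autophagosome and load it. They were chosen by gene symbol from a fixed list, with no measured value in the rule, and are 36 of the 37620 Ensembl genes in each deposited table. All 36 were found, had reads in all 8 libraries, and passed the filter on low counts. By textbook role, 5 act in initiation, 11 in nucleation and membrane supply, 16 in conjugation and 4 as cargo receptors.

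RNA was sequenced from 2 cell populations of mouse small intestinal epithelium, separated on a flow sorter by the surface protein CD24. CD24Mid cells (4 libraries, numbered 1, 3, 5 and 7) stained at an intermediate level for CD24. CD24Neg cells (4 libraries, numbered 2, 4, 6 and 8) did not stain for CD24. Both gates excluded cells positive for CD45, a surface protein of leukocytes, and cells that bound the lectin of Ulex europaeus, and the series title places both populations in a study of intestinal differentiation. The series describes the 4 libraries of a group as biological replicates, with no genotype or treatment named. The sources used here do not give strain, age, sex or the number of mice per library.

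The labels were checked against marker genes as summed CPM, the gene-unique counts relative to a library size normalised by TMM, a scaling under which most genes balance. The 5 markers of crypt stem cells summed to 3068 to 4050 CPM in CD24Mid libraries and to 122 to 355 CPM in CD24Neg libraries. The 8 enterocyte markers went the other way, at 839 to 1356 CPM against 23823 to 41790 CPM. Goblet cell markers were present in both groups, at 3495 to 5429 CPM in CD24Mid and 12272 to 34599 CPM in CD24Neg. T and NK lymphocyte markers, which a CD45 depletion should remove, reached 521 CPM in CD24Neg replicate 2 and 392 CPM in replicate 8, against 29.9 and 84 CPM in replicates 4 and 6 and at most 18 CPM in CD24Mid. B and plasma cell markers were higher in CD24Mid, at 394 to 1011 CPM against 22.6 to 53.8 CPM. Markers of dividing cells (945 to 1551 against 62.4 to 230 CPM) and enteroendocrine cells (259 to 571 against 76.5 to 113 CPM) were also higher in CD24Mid. Those of Paneth cells (97.7 to 231 and 81 to 295 CPM), tuft cells (4.51 to 10.2 and 3.04 to 11.5 CPM), myeloid cells (21.3 to 38.3 and 12.6 to 25.8 CPM) and stroma and endothelium (9.55 to 12.2 and 2.66 to 11.4 CPM) overlapped between the groups. Unique counts per library ran from 11340782 to 18928233, and the share of them from genes of the mitochondrial genome was 8.03% to 9.17% in CD24Mid and 27.7% to 37.0% in CD24Neg.

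Macroautophagy encloses cytoplasm in a double membrane and delivers it to the lysosome. The Ulk kinase complex starts the process, a phosphatidylinositol 3-kinase complex marks the site, lipid transfer proteins and Atg9a feed the growing membrane, and a pair of ubiquitin-like conjugation systems attach proteins of the ATG8 family (LC3 and GABARAP) to it. Cargo receptors hold ubiquitin-tagged proteins, organelles or bacteria with one end and ATG8 proteins with the other. In the gut epithelium, autophagy is known for its part in Paneth cell granules, in the defence against invading bacteria and in the upkeep of stem cells.

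Relative to the other genes, most of the autophagy genes were at a higher level in CD24Neg cells. Of the 36 genes, 26 were higher in CD24Neg, 1 (Wipi1) was higher in CD24Mid, and 9 did not pass the test (edgeR quasi-likelihood F test, Benjamini-Hochberg adjusted p under 0.05 over 12840 genes). Among all genes tested, 34.3% were called higher in CD24Neg and 35.5% higher in CD24Mid. In 11 of the 36 the difference toward CD24Neg was also over 2-fold, against 18.3% of all genes tested. The 4 libraries of a group did not overlap those of the other in 27 of the 36, against 64.4% of all genes. The median log2 fold change (CD24Mid over CD24Neg, so that negative values are higher in CD24Neg) was -0.48 over the 36 genes and 0.02 over all genes. In bulk RNA, fewer cells of a type and less RNA per cell cannot be told apart.

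**Figure D1:**
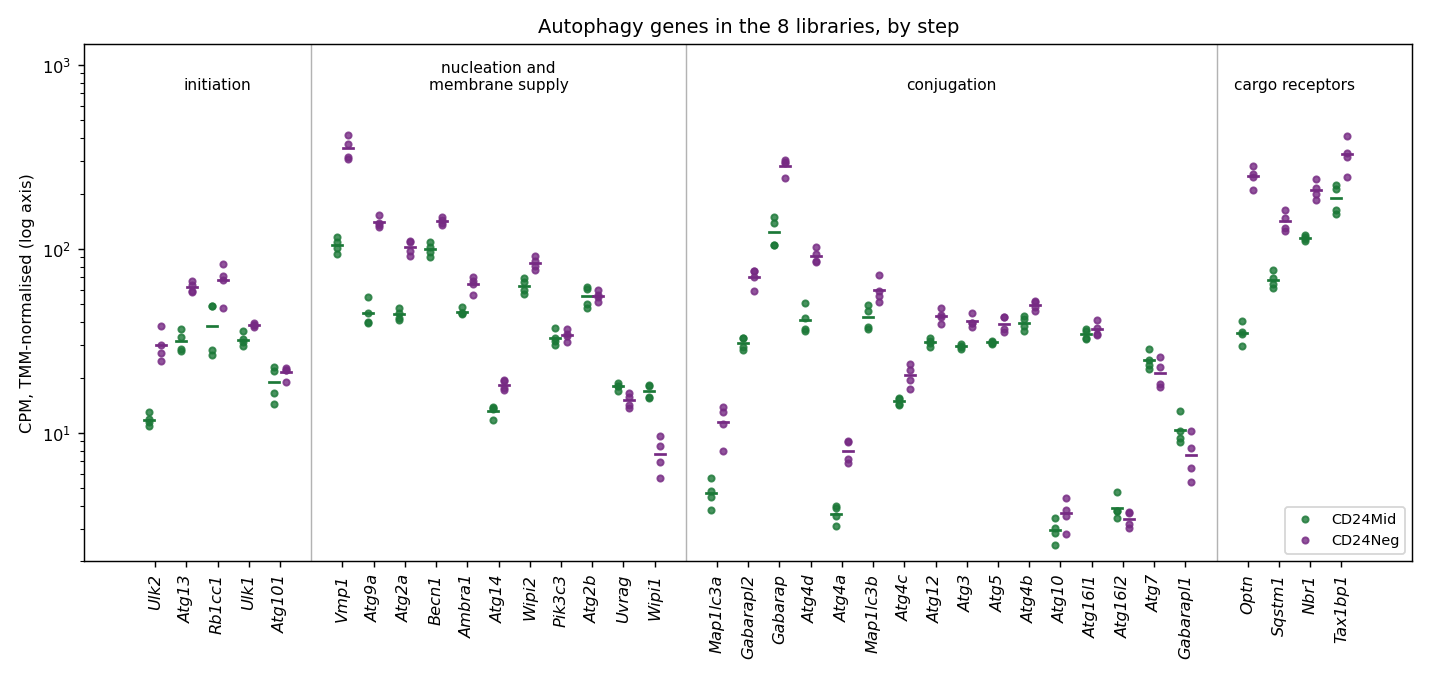
TMM-normalised CPM (log axis) of the 36 autophagy genes, arranged by step, with 1 point per library (green CD24Mid, purple CD24Neg) and a bar at the mean of each group of 4. The CD24Neg points of Optn (208 to 283 CPM) lie far above its CD24Mid points (29.5 to 40.8 CPM), and the order is the other way for Wipi1.

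How many genes differ depends on what a count is scaled to. The values above use TMM. Its scaling factors were 1.335 to 1.42 in CD24Mid and 0.697 to 0.757 in CD24Neg, and dividing by total counts instead moved the all-gene median by 0.94 (log2) toward CD24Mid. On unscaled totals, 5 of the 36 genes were called higher in CD24Neg and 21 higher in CD24Mid, against 12.9% and 69.8% of all genes. On unscaled totals without the mitochondrial genes the counts were 13 and 9, against 20.1% and 54.6%. With upper-quartile scaling they were 19 and 4, against 27.3% and 43.6%. Under all 4 scalings, Ulk2, Vmp1, Atg2a, Atg9a and Optn were called higher in CD24Neg and Wipi1 was called higher in CD24Mid. A scaling shifts all genes nearly alike, so the place of the autophagy genes relative to all other genes could hardly move with it. Under TMM, 31 of the 36 lay below the all-gene median (50% of all genes by construction). Between 30 and 31 did so over the alternatives tried, which for the scalings is no test of that place. Without CD24Neg replicates 2 and 8, the libraries with the most lymphocyte transcript, 25 of the 36 were called higher in CD24Neg and 1 higher in CD24Mid, against 30% and 33.7% of all genes. DESeq2 gave 26 and 1 (35% and 35.2% of all genes), as did estimated counts that include shared reads (33.7% and 34.8%). The parts of mitochondrial share and of cell type makeup in these differences were not tested.

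**Figure D2:**
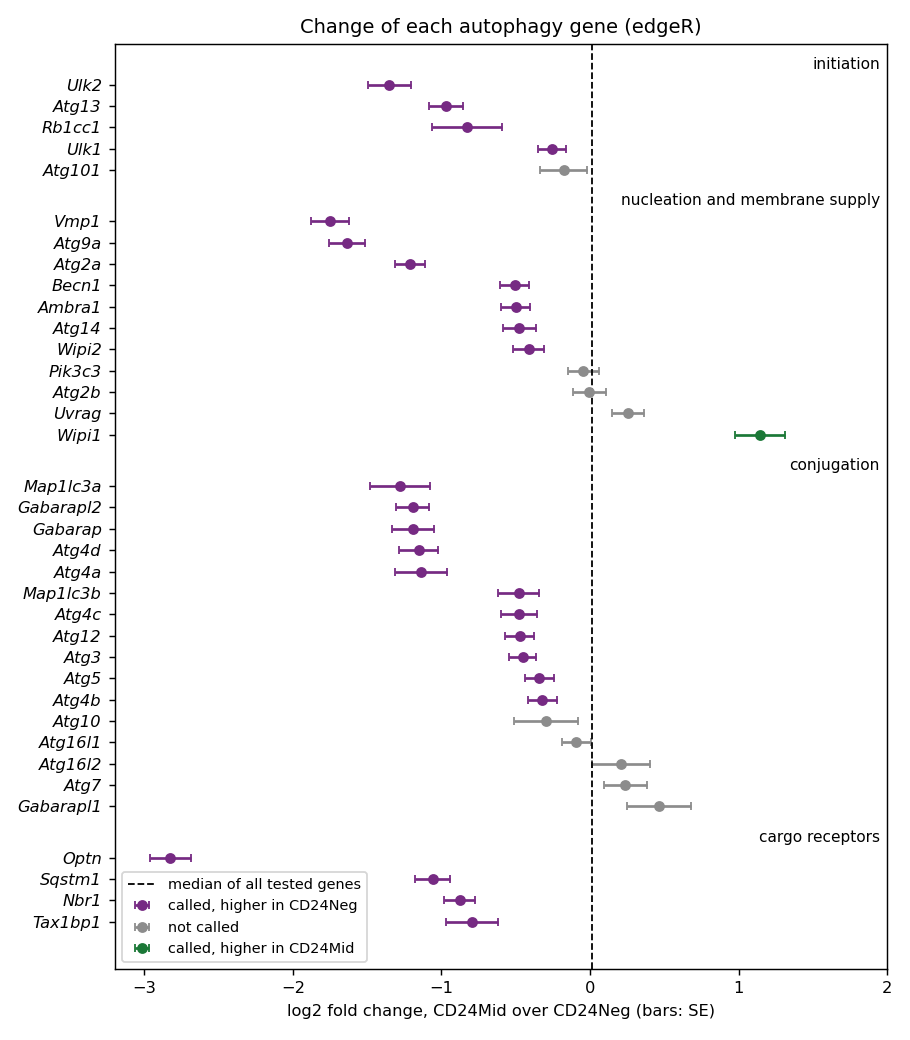
Log2 fold change (CD24Mid over CD24Neg) with its standard error for each of the 36 genes, grouped by step, with purple for genes called higher in CD24Neg, green for higher in CD24Mid and grey for not called. Under TMM the values run from -2.83 (Optn) to 1.15 (Wipi1), and the dashed line is the median of all genes tested (0.02).

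**Figure D3:**
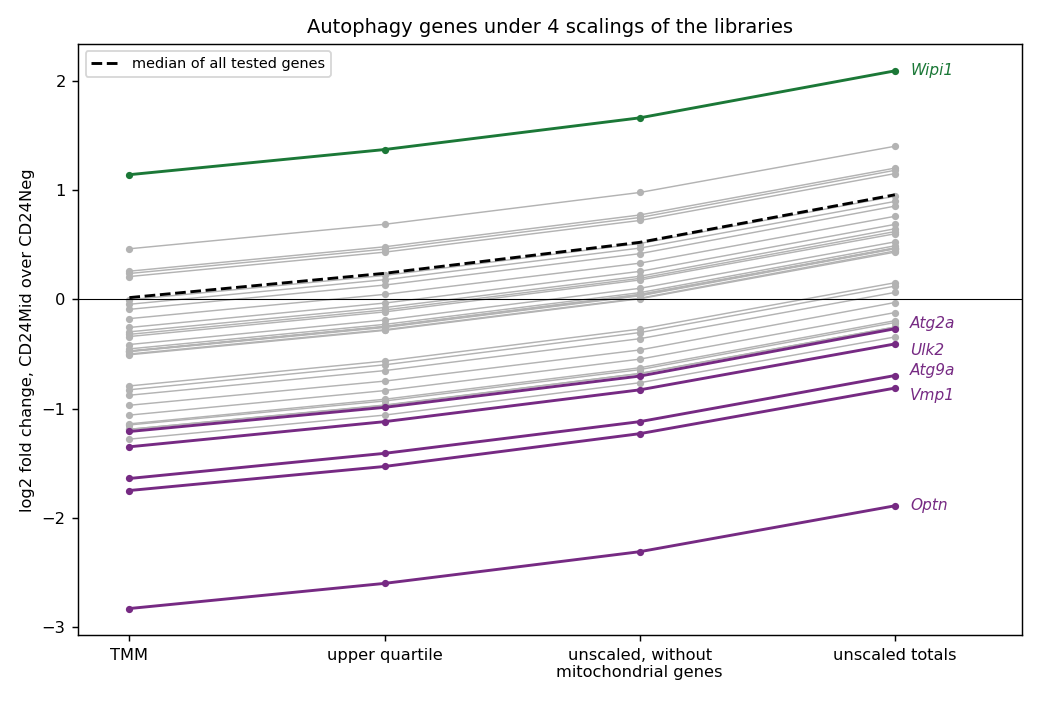
Log2 fold change (CD24Mid over CD24Neg) of the 36 genes under 4 scalings, 1 line per gene, with the median of all genes tested dashed. The lines run side by side with the dashed one, and the coloured genes (Wipi1 above 0; Atg2a, Ulk2, Atg9a, Vmp1 and Optn below 0) keep their side of 0 and their call in all 4.

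The initiation complex was higher in CD24Neg in 4 of its 5 genes, against 34.3% of all genes tested. Its median log2 fold change was -0.83. On unscaled totals the median was 0.12, against 0.96 over all genes, with Atg101 (0.76), Ulk1 (0.69) and Rb1cc1 (0.12) on the CD24Mid side. Ulk2 (ENSMUSG00000004798), one of the 2 kinases that start autophagy, had the largest change of the step. Its levels were 11.4, 10.9, 11.8 and 12.9 CPM in CD24Mid replicates 1, 3, 5 and 7, and 24.4, 29.98, 38.3 and 27.2 CPM in CD24Neg replicates 2, 4, 6 and 8. Every CD24Neg library was above every CD24Mid library, and the mean was 2.55-fold higher in CD24Neg (edgeR log2 fold change -1.35 ± 0.15 SE, adjusted p = 1.19e-05). Its paralog Ulk1, the kinase best known as the target of nutrient signalling, was at 32.2 ± 2.56 CPM in CD24Mid against 38.5 ± 0.791 CPM in CD24Neg (SD, n = 4 each), 1.20-fold higher (edgeR adjusted p = 0.0293). That call was lost when any of 7 of the 8 libraries was left out, with edgeR adjusted p from 0.0625 to 0.105.

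Atg13, the adaptor that holds the kinase in the complex, was at 36.8, 33.2, 27.7 and 28.7 CPM in CD24Mid and at 63.7, 59.0, 58.0 and 66.9 CPM in CD24Neg. The groups were apart, with a 1.96-fold higher mean in CD24Neg (edgeR adjusted p = 2.05e-05). The scaffold Rb1cc1 (FIP200) was at 26.5, 28.1, 48.8 and 49.0 CPM in CD24Mid and at 47.9, 67.6, 83.3 and 71.4 CPM in CD24Neg. CD24Mid replicates 5 and 7 overlapped the lowest CD24Neg library, and the 1.78-fold difference (edgeR adjusted p = 0.0086) was lost without CD24Neg replicate 6 (edgeR adjusted p = 0.0589). Atg101, the partner that stabilises Atg13, did not pass the test (18.9 ± 4.04 CPM in CD24Mid, 21.3 ± 1.66 CPM in CD24Neg, log2 fold change -0.18 ± 0.16 SE).

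Nucleation and membrane supply held both the gene furthest toward CD24Mid and several of those furthest toward CD24Neg. Of its 11 genes, 7 were higher in CD24Neg, 1 was higher in CD24Mid and 3 did not pass. Of all genes tested, 34.3% were called higher in CD24Neg and 35.5% higher in CD24Mid. The median of the step was -0.48, and 0.47 on unscaled totals, where the all-gene median was 0.96. Vmp1 (ENSMUSG00000018171), a scramblase of the endoplasmic reticulum, was at 116, 93.6, 101 and 109 CPM in CD24Mid and at 308, 371, 414 and 317 CPM in CD24Neg. The lowest CD24Neg library was well above the highest CD24Mid library, a 3.37-fold difference (edgeR log2 fold change -1.75 ± 0.13 SE, adjusted p = 7.63e-07). In the later annotation used for names the gene also holds the microRNA gene Mir21a on the same strand.

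Atg9a (ENSMUSG00000033124), the scramblase that travels in vesicles to the growing membrane, was at 54.5, 39.7, 39.99 and 45.1 CPM in CD24Mid and at 138, 153, 134 and 132 CPM in CD24Neg, 3.11-fold higher (edgeR adjusted p = 8.74e-07). Its gene overlaps Ankzf1 on the opposite strand, and the sources used here do not give the strand setting of the counting. The same holds for Atg2b with Gskip, Becn1 with Cntd1, Atg4d with Kri1, Map1lc3b with Zcchc14 and Sqstm1 with Mrnip. Atg2a, a lipid transfer protein that bridges the endoplasmic reticulum and the new membrane, was at 48.0, 42.2, 44.7 and 41.3 CPM in CD24Mid and at 97.9, 109, 91.0 and 110.3 CPM in CD24Neg. That was a 2.31-fold difference with no overlap (edgeR adjusted p = 1.87e-06). Its paralog Atg2b was at 50.1, 48.0, 62.5 and 60.5 CPM in CD24Mid and at 59.9, 51.4, 54.7 and 55.9 CPM in CD24Neg, with the groups overlapping and a log2 fold change of -0.0044 ± 0.11 SE.

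Wipi1 (ENSMUSG00000041895), which reads the phosphoinositide made by the kinase complex, was the gene higher in CD24Mid. Its levels were 15.4, 17.9, 15.6 and 18.3 CPM in CD24Mid and 9.63, 8.45, 5.67 and 6.96 CPM in CD24Neg. No CD24Neg library reached the lowest CD24Mid library, and the mean was 2.21-fold higher in CD24Mid (edgeR log2 fold change 1.15 ± 0.17 SE, adjusted p = 0.000115). Under TMM, Wipi2, the paralog that recruits Atg16l1, went the other way (on unscaled totals its log2 fold change was 0.52), at 62.8 ± 5.76 CPM in CD24Mid against 83.7 ± 6.37 CPM in CD24Neg (SD, n = 4 each; 1.33-fold, edgeR adjusted p = 0.00416).

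The core of the phosphatidylinositol 3-kinase complex moved less, and on unscaled totals its genes lay on the CD24Mid side (Becn1 0.43, Atg14 0.47, Ambra1 0.44). Under TMM, Becn1 (Beclin 1, its scaffold) was at 99.5 ± 7.91 CPM in CD24Mid against 142 ± 6.34 CPM in CD24Neg, 1.42-fold higher (edgeR adjusted p = 0.000682). Ambra1, a regulator of Becn1, was also 1.42-fold higher in CD24Neg, and Atg14, which directs the complex to autophagy, was 1.39-fold higher. Pik3c3 (the catalytic subunit, Vps34) was at 32.9 ± 3.21 and 33.9 ± 2.25 CPM and did not pass. Uvrag, which takes the place of Atg14 in the endosomal form of the complex, was at 17.9, 16.8, 18.1 and 18.8 CPM in CD24Mid and at 16.5, 15.7, 14.2 and 13.6 CPM in CD24Neg. The libraries did not overlap, but the log2 fold change of 0.26 ± 0.11 SE did not pass the test (edgeR adjusted p = 0.0562). Uvrag was called higher in CD24Mid with upper-quartile scaling (edgeR adjusted p = 0.00293) and on unscaled totals with or without mitochondrial genes. The same call came with TMM without mitochondrial genes (edgeR adjusted p = 0.0353) and with no low-count filter (edgeR adjusted p = 0.029).

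The conjugation step held 11 genes higher in CD24Neg, against 34.3% of all genes tested, and 5 that did not pass. Its median log2 fold change was -0.46, and 0.48 on unscaled totals, where the all-gene median was 0.96. On unscaled totals 11 of the 16 were called higher in CD24Mid, near the 69.8% of all genes. Atg3, the E2-like enzyme of ATG8, was at 29.5 ± 0.722 CPM in CD24Mid against 40.4 ± 3.03 CPM in CD24Neg, 1.37-fold higher (edgeR adjusted p = 0.00117). Atg12, the ubiquitin-like partner of Atg5, was 1.39-fold higher and Atg5 1.27-fold higher, the latter no longer called without CD24Neg replicate 4 (edgeR adjusted p = 0.0819) or 6 (edgeR adjusted p = 0.0730). Atg7, the E1-like enzyme, was at 24.9, 28.7, 23.4 and 22.3 CPM in CD24Mid and at 25.7, 22.9, 17.7 and 18.3 CPM in CD24Neg. Its groups overlapped, with a log2 fold change of 0.24 ± 0.14 SE, and it was called higher in CD24Mid without CD24Neg replicate 2 (edgeR adjusted p = 0.0294), with upper-quartile scaling (edgeR adjusted p = 0.0175) and on unscaled totals with or without mitochondrial genes. Atg10 (the E2-like enzyme of Atg12), Atg16l1 and Atg16l2 (the scaffolds of the Atg12 and Atg5 conjugate) did not pass, with log2 fold changes of -0.30 ± 0.21, -0.09 ± 0.10 and 0.21 ± 0.19 (SE).

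The Atg4 proteases trim ATG8 proteins and later release them. All 4 were higher in CD24Neg under TMM, by different amounts, against 34.3% of all genes tested. On unscaled totals Atg4b (0.62) and Atg4c (0.46) had log2 fold changes toward CD24Mid. Atg4d was at 50.6, 42.1, 36.6 and 35.8 CPM in CD24Mid and at 102, 84.6, 94.3 and 85.7 CPM in CD24Neg, 2.22-fold higher with no overlap (edgeR adjusted p = 1.49e-05). Atg4a, much less abundant, was at 3.65 ± 0.401 CPM in CD24Mid against 8.02 ± 1.16 CPM in CD24Neg, 2.20-fold higher (edgeR adjusted p = 0.000167). Of the reads assigned to Atg4a, 44.9% were shared with other genes and are not in these unique counts. The differences were smaller for Atg4c (1.39-fold, edgeR adjusted p = 0.00469) and Atg4b (1.25-fold, edgeR adjusted p = 0.0118).

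Of the 5 ATG8 genes, 4 were higher in CD24Neg under TMM, against 34.3% of all genes tested. Of these 4, Map1lc3b lay toward CD24Mid on unscaled totals (log2 fold change 0.46). Gabarap (ENSMUSG00000018567) was the most abundant, at 148, 138, 105 and 105 CPM in CD24Mid and at 304, 297, 292 and 242 CPM in CD24Neg, 2.28-fold higher (edgeR adjusted p = 2.45e-05). The lowest CD24Neg library was above the highest CD24Mid library. Gabarapl2 was at 32.8, 32.9, 29.2 and 28.1 CPM in CD24Mid and at 76.2, 70.4, 76.0 and 58.8 CPM in CD24Neg, 2.29-fold higher (edgeR adjusted p = 4.02e-06). Map1lc3a was at 4.85, 5.67, 4.47 and 3.82 CPM against 12.9, 13.8, 11.1 and 7.95 CPM, 2.43-fold higher in CD24Neg (edgeR adjusted p = 0.000195). Map1lc3b, the LC3 protein most used as a marker of autophagosomes, was at 46.1, 49.8, 37.8 and 36.9 CPM against 72.0, 58.8, 55.7 and 51.6 CPM, a smaller 1.39-fold difference (edgeR adjusted p = 0.00917). Of the reads assigned to Map1lc3b, 27.9% were shared. Gabarapl1 was at 10.3, 13.2, 8.87 and 9.37 CPM in CD24Mid and at 8.23, 10.3, 6.46 and 5.41 CPM in CD24Neg. Its groups overlapped and it did not pass (edgeR log2 fold change 0.46 ± 0.21 SE, adjusted p = 0.0742), but it was called higher in CD24Mid without CD24Neg replicate 4 (edgeR adjusted p = 0.0113), under the other 3 scalings and with no low-count filter.

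All 4 cargo receptors were higher in CD24Neg under TMM, against 34.3% of all genes tested, with a median of -0.97. The libraries overlapped in none of the 4. Of all genes, 31.4% lay toward CD24Neg without overlap. On unscaled totals Nbr1 (0.06) and Tax1bp1 (0.15) had log2 fold changes just on the CD24Mid side. Optn (ENSMUSG00000026672, optineurin, a receptor for ubiquitin-tagged mitochondria and bacteria) had the largest change of the 36 genes. It was at 40.8, 35.3, 29.5 and 34.6 CPM in CD24Mid and at 208, 247, 283 and 254 CPM in CD24Neg, 7.09-fold higher (edgeR log2 fold change -2.83 ± 0.14 SE, adjusted p = 1.26e-07). Sqstm1 (ENSMUSG00000015837, p62, the receptor that gathers ubiquitin-tagged protein into bodies) was at 76.9, 69.7, 61.2 and 64.1 CPM in CD24Mid and at 147, 163, 130.5 and 126 CPM in CD24Neg, 2.08-fold higher (edgeR adjusted p = 1.45e-05). Nbr1, its partner in such bodies, was at 113, 111, 118 and 116 CPM in CD24Mid and at 185, 216, 241 and 199 CPM in CD24Neg. The mean was 1.84-fold higher in CD24Neg (edgeR adjusted p = 2.55e-05). Tax1bp1, which carries ubiquitin-tagged aggregates and bacteria, was at 162, 155, 224 and 212 CPM in CD24Mid and at 247, 315, 412 and 331 CPM in CD24Neg, 1.73-fold higher (edgeR adjusted p = 0.00204).

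Ratios between paralogs within a library do not depend on how libraries are scaled. Each was taken from unique counts per kilobase of effective length, and 6 were tested with an exact two-sided permutation test over samples, where 4 libraries against 4 allow a smallest p of 0.0286. In 5 of the 6 the groups did not overlap, and each of these reached that smallest p (adjusted p = 0.0343 over the 6). Among single genes, 64.4% of all genes tested had no overlap. How often ratios of other gene pairs keep the groups apart was not tested. Ulk1 over Ulk2 was 2.87, 2.94, 2.56 and 2.65 in CD24Mid and 1.78, 1.18, 0.921 and 1.39 in CD24Neg, 2.15-fold higher in CD24Mid. Atg2a over Atg2b was 0.758 to 0.853 in the CD24Mid libraries and 1.40, 1.91, 1.59 and 1.80 in CD24Neg. The more abundant of the pair per length was thus Atg2b in the 4 CD24Mid libraries and Atg2a in the 4 CD24Neg libraries. Wipi1 over Wipi2 was 0.434, 0.451, 0.421 and 0.512 in CD24Mid and 0.225, 0.184, 0.12 and 0.167 in CD24Neg, 2.67-fold higher in CD24Mid.

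Atg4b over the sum of the other 3 proteases was 0.583, 0.828, 0.645 and 0.839 in CD24Mid and 0.342, 0.506, 0.332 and 0.34 in CD24Neg, 1.91-fold higher in CD24Mid. LC3 genes over GABARAP genes was 0.169, 0.193, 0.194 and 0.184 in CD24Mid and 0.144, 0.13, 0.114 and 0.118 in CD24Neg, 1.47-fold higher in CD24Mid. GABARAP genes held most of the ATG8 transcript per length in both groups. Gabarap alone made up 67.1% ± 2.44 of it in CD24Mid and 74% ± 0.995 in CD24Neg, and Map1lc3b made up 13.2% ± 0.559 and 8.39% ± 0.75 (SD, n = 4 each). Unique counts leave out 27.9% of the reads assigned to Map1lc3b, 12.2% for Gabarapl2 and 0% for Gabarap, which lowers the LC3 share. From estimates that include shared reads, LC3 over GABARAP was 0.222 to 0.252 in CD24Mid and 0.146 to 0.18 in CD24Neg. Atg16l1 over Atg16l2 was 6.29, 3.42, 4.95 and 3.59 in CD24Mid and 5.35, 2.10, 3.11 and 4.44 in CD24Neg. The groups overlapped (exact two-sided permutation p = 0.4), and the deposited effective length of Atg16l2 itself varied from 583 to 1510 bases between libraries.

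**Figure D4:**
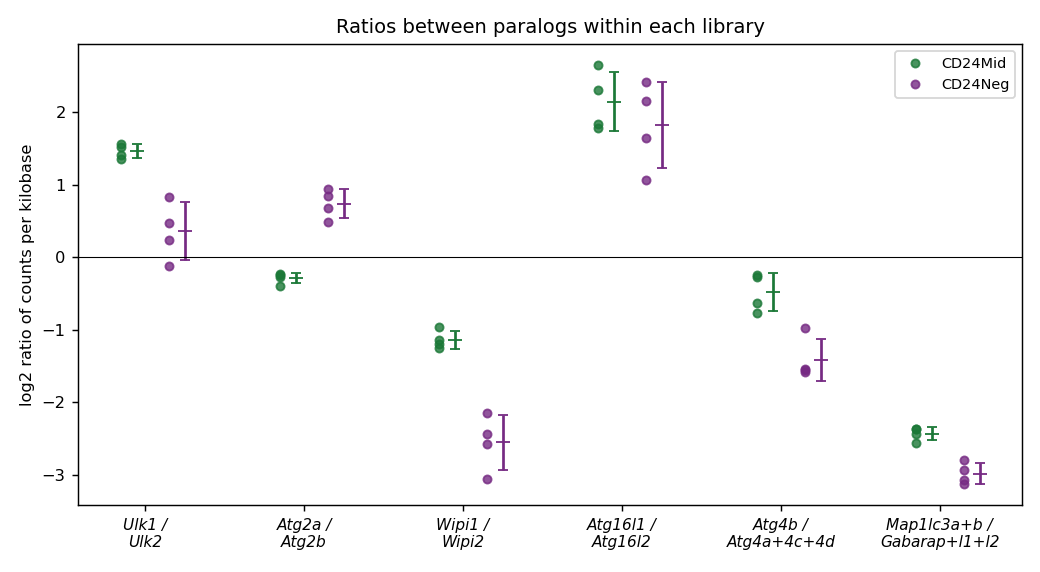
Log2 ratio of paralogs in each library, from unique counts per kilobase of effective length, for the 6 ratios tested. Each point is 1 library, and the groups are apart in 5 ratios and overlap for Atg16l1 over Atg16l2. Among single genes, 64.4% of all genes tested had no overlap.

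Promoter sequence was looked at because many of the 36 genes lay on 1 side of the median of all genes. The 250 bases before the RefSeq gene start (GRCm38.p6) were matched for 30 of the 36. TFEB and TFE3, transcription factors of the lysosome and autophagy genes, are known to bind an extended E-box, searched here as TCACGTG on both strands. It was in 2 of the 30 promoters, those of Atg3 and Atg7, against 3.58% of 27025 genes. The shorter E-box inside it, without the first T, was in 3 of the 30 (Atg3, Atg5 and Atg7), against 6.86%. A match is a description of letters in this window. The 30 genes had a median of 18 CG dinucleotides and 61.4% GC, against 6 and 52.8% over the 27025 genes. The highest value was taken where a gene had more than 1 promoter. The 27025 genes include genes not tested here, while the 36 all passed the low-count filter. Neither the motifs nor these values were compared with tested genes alone. The promoters of Atg3 and Atg7 are printed because they hold the extended E-box (capitals), at chr16:45158579-45158828 and chr6:114670846-114671095 of GRCm38.p6, both on the plus strand.
Atg3: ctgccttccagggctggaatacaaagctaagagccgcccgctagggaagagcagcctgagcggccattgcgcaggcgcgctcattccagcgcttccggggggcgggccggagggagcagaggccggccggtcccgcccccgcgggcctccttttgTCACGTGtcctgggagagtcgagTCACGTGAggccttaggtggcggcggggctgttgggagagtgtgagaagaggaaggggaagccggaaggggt
Atg7: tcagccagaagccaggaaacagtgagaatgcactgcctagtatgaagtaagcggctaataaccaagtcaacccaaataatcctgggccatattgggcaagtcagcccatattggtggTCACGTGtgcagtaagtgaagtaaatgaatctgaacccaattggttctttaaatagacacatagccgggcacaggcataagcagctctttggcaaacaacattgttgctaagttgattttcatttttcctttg
Atg3 was 1.37-fold higher in CD24Neg and Atg7 did not pass the test. The promoters of the genes at the ends of the range, chosen after their values were seen, are those of Optn (chr2:5064118-5064367, minus strand) and Wipi1 (chr11:109611390-109611639, minus strand), with CG dinucleotides in capitals. Optn held 8 of them and Wipi1 19.
Optn: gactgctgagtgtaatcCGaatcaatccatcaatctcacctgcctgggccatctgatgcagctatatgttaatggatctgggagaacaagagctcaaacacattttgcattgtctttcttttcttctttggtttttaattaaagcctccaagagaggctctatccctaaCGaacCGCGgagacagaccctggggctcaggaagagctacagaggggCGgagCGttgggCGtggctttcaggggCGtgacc
Wipi1: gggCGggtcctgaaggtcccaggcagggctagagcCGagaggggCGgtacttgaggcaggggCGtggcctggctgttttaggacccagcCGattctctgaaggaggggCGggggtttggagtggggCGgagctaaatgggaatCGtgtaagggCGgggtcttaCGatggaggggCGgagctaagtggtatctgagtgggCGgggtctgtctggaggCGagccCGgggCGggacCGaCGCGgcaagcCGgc

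The other genes of the pathway were counted from 4 lists under the same TMM scaling and test. Among 25 upstream regulators and transcription factors, of which 24 were tested, 10 were higher in CD24Neg and 3 higher in CD24Mid, where 34.3% and 35.5% of all genes were, so the count toward CD24Neg was near that of all genes. Sesn1, a stress-induced inhibitor of mTORC1, was at 51.5 ± 6.40 CPM in CD24Mid against 199 ± 23.9 CPM in CD24Neg (3.86-fold, edgeR adjusted p = 4.16e-07), and Flcn, which acts on the Rag GTPases, was 2.50-fold higher in CD24Neg. Tfeb itself was at 17.0 ± 1.98 CPM in CD24Mid against 27.5 ± 2.02 CPM in CD24Neg (1.62-fold, edgeR adjusted p = 0.000317). The 3 higher in CD24Mid were Ddit4 (2.63-fold), Deptor (1.54-fold) and Rheb (1.20-fold), of which the first 2 encode inhibitors of mTOR and Rheb its activator. Among 20 genes of other machinery and fusion with the lysosome, of which 19 were tested, 14 were higher in CD24Neg and the other 5 did not pass, against the same shares of all genes. The lysosomal SNARE Vamp8 was at 51.6 ± 9.70 CPM in CD24Mid against 143 ± 8.60 CPM in CD24Neg (2.78-fold, edgeR adjusted p = 3.74e-06), and its partner Snap29 was 2.03-fold and Wdr45, a relative of the Wipi genes, 2.06-fold higher.

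Among 14 other selective receptors and their regulators, of which 13 were tested, 9 were higher in CD24Neg and 3 in CD24Mid, against 34.3% and 35.5% of all genes. Tbk1, the kinase that phosphorylates optineurin, was at 29.8 ± 3.93 CPM in CD24Mid against 92.9 ± 21.6 CPM in CD24Neg (3.11-fold, edgeR adjusted p = 8.17e-06). Pink1, the kinase that marks damaged mitochondria, was 2.96-fold higher in CD24Neg, and Ncoa4, the receptor for ferritin, 2.53-fold. The 3 higher in CD24Mid were the mitochondrial receptors Fundc1 (1.58-fold) and Bcl2l13 (1.36-fold), and Stbd1, a glycogen receptor at 0.656 ± 0.173 against 0.178 ± 0.153 CPM, named outside the rule on level. Among 32 lysosomal genes, 21 were higher in CD24Neg and 5 in CD24Mid, against the same shares of all genes. Lipa, lysosomal acid lipase, was at 3.70 ± 0.347 CPM in CD24Mid against 72.7 ± 27.6 CPM in CD24Neg (19.6-fold, edgeR adjusted p = 2.74e-07). Neu1, a sialidase, was 4.57-fold higher in CD24Neg. The 5 higher in CD24Mid were the hydrolases Gusb (2.02-fold), Sgsh (1.81-fold), Gla (1.44-fold) and Gaa (1.36-fold) and the cholesterol carrier Npc2 (1.29-fold). The last 2 were named after their values were seen. Median log2 fold changes were -0.14, -0.70, -0.58 and -0.65 for the 4 lists in this order, against 0.02 over all genes. On unscaled totals the same medians were 0.81, 0.24, 0.36 and 0.28, against 0.96 over all genes.

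**Figure D5:**
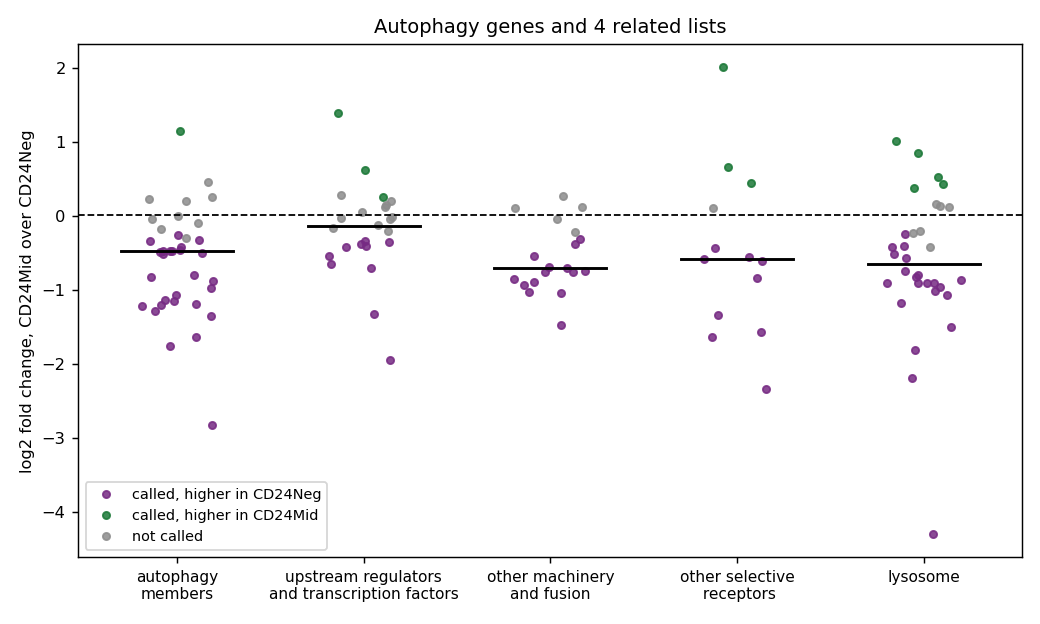
Log2 fold change (CD24Mid over CD24Neg) under TMM for the 36 autophagy genes and the tested genes of 4 related lists, 1 point per gene, with a bar at each list's median. The medians are -0.48, -0.14, -0.70, -0.58 and -0.65 from left to right, against 0.02 for all genes tested (dashed). On unscaled totals all 5 are above 0 and below the all-gene median of 0.96.

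Per kilobase of effective length, the 36 genes were at a median level of 13.8 CPM per kb in CD24Mid and 21.6 CPM per kb in CD24Neg, against 10.5 and 10.2 for all genes tested. Gabarap had the highest level in both groups, at 164 and 389.7 CPM per kb. Next in order of CD24Neg level came Vmp1 (229), Tax1bp1 (123) and Optn (121 CPM per kb). In CD24Mid, Vmp1 was at 79.6, Becn1 at 75.3, Tax1bp1 at 71.3 and Optn at 17.1 CPM per kb. These levels leave out shared reads, which were 21.2% of the reads assigned to Becn1 and 0.61% of those assigned to Vmp1.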

How the data were processed

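Per the labels' protocols, TruSeq RNA libraries were made from total RNA of sorted cells, and reads were aligned with Bowtie 0.12.8 to NCBIM37, per the submitters' processing notes. The column names of the deposited tables are those of MMSEQ, and the sources used here do not give its version, annotation or strand setting. The deposited unique counts are whole numbers of fragments that hit 1 gene alone, without normalisation. The deposited estimate, read as a natural log per kilobase and mapped fragments, also holds shared reads, and served as an alternative. That reading is not stated by the authors. The natural log of unique counts per kilobase of effective length and mapped fragments was regressed on it, leaving out genes with few counts. The slope was 0.965 to 0.981. The deposited effective lengths were used for levels per kilobase and ratios.

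Gene names came from a later annotation and were found for 32897 of 37620 genes (87.4%). Gene positions on NCBIM37 were not used, and promoters are from RefSeq on GRCm38.p6. The test of counts was edgeR 4.0.16 (R 4.3.3), by its quasi-likelihood F test with robust fitting, TMM, filterByExpr and the group alone as the model. P-values were adjusted by Benjamini-Hochberg over 12840 genes, with calls at 0.05. The script was tested on simulated data. CPM are TMM-normalised, and means are given with the SD of 4 libraries. Ratios used SciPy 1.17.1. The alternatives were upper-quartile scaling, unscaled totals, no mitochondrial genes, DESeq2 1.42.0, no low-count filter, estimated counts rounded to whole numbers, and leaving out each library. The fits without CD24Neg replicates 2 and 8 and on unscaled totals without mitochondrial genes were chosen after seeing the data. A gene with no read is limited to 0.121 to 0.145 CPM in CD24Mid and 0.218 to 0.38 CPM in CD24Neg, for counting error only.

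The 36 genes, the pathway lists and the marker lists were chosen with earlier results of these data known. Named pathway genes are the 3 called genes per direction with the largest change and a mean of at least 10 CPM, of which 1 is not reported here. P-values measure the spread between libraries, since the sources do not say how many animals gave them. Protein sequences were not used here.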

Additional observations from a re-analysis of the deposited data

Results flagged for a closer look

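In the CD24Neg group, the log2 ratio of Atg4b over the sum of Atg4a, Atg4c and Atg4d stood apart in 1 library: it was -0.982 in replicate 4, against -1.59, -1.56 and -1.55 in the other 3. The gap to the nearest library was 0.933 of the whole range, above the critical value of Dixon's test for 4 samples. Chance marks about 1 in 20 groups this way, and 84 groups were looked at. The deposited effective length of Atg4b was 1812 bases in that library and 2469 to 2490 bases in the other CD24Neg libraries. With no length term, the SD of the log2 ratio over the CD24Neg libraries was 0.0383. All 4 CD24Neg values were below all 4 CD24Mid values with the length term.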

How the results depend on the processing

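DESeq2 gave the same call for all 36 genes, and estimated counts gave 26 genes higher in CD24Neg and 1 in CD24Mid. The scaling moved the calls most. Over all genes, unscaled totals put 8959 on the CD24Mid side and 1659 on the CD24Neg side, and 7049 and 2592 without mitochondrial genes. Of the 36 genes, those higher in CD24Mid (1 with TMM) numbered 4 under the upper quartile, 21 on unscaled totals, 9 on unscaled totals without mitochondrial genes, 2 with TMM without mitochondrial genes and 3 with no low-count filter; those higher in CD24Neg (26) numbered 5 on unscaled totals and 13 without mitochondrial genes. By step, unscaled totals gave 2 and 1 (initiation, CD24Mid and CD24Neg), 8 and 3 (nucleation), 11 and 0 (conjugation) and 1 higher in CD24Neg (cargo receptors). The shares of all genes were 69.8% and 12.9%. Unscaled totals without mitochondrial genes gave 1 and 2, 4 and 3, and 4 and 5 for the first 3 steps, against 54.6% and 20.1% of all genes. Upper-quartile scaling gave 2 higher in CD24Mid in nucleation, and 2 and 7 in conjugation, against 43.6% and 27.3% of all genes. With no low-count filter, 2 initiation genes were higher in CD24Neg, and 2 nucleation genes and 1 conjugation gene higher in CD24Mid. Of all 21402 genes in that fit, 4351 were higher in CD24Neg and 5379 in CD24Mid. TMM without mitochondrial genes gave 2 nucleation genes higher in CD24Mid, against 4656 of all 12904 genes in that fit.

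For the upstream regulators (3 and 10 with TMM) the counts higher in CD24Mid and CD24Neg were 8 and 5 under the upper quartile, 20 and 2 on unscaled totals, 6 and 6 with no low-count filter, and 13 and 2 on unscaled totals without mitochondrial genes. For machinery and fusion (0 and 14), they were 8 and 1 on unscaled totals and 6 and 6 without mitochondrial genes, with 3 higher in CD24Mid with upper-quartile scaling and 1 each with no filter and with TMM without mitochondrial genes. For the other receptors (3 and 9), they were 7 and 3 on unscaled totals, and 4 higher in CD24Neg without mitochondrial genes. For the lysosome (5 and 21), they were 16 and 3 on unscaled totals, and 11 higher in CD24Mid without mitochondrial genes. The shares or counts of all genes under these settings are those given with the steps above.

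Log2 fold changes that changed sign on unscaled totals were Ulk1 0.69, Rb1cc1 0.12, Atg101 0.76, Becn1 0.43, Pik3c3 0.90, Atg14 0.47, Ambra1 0.44, Wipi2 0.52, Atg2b 0.94, Atg3 0.49, Atg4b 0.62, Atg4c 0.46, Atg5 0.60, Atg10 0.64, Atg12 0.47, Atg16l1 0.85, Map1lc3b 0.46, Nbr1 0.062 and Tax1bp1 0.15, with medians of 0.46 (36 genes), 0.12, 0.47 and 0.48 (first 3 steps) and 0.81, 0.24, 0.36 and 0.28 (pathway lists). Without mitochondrial genes they were Ulk1 0.25, Atg101 0.33, Becn1 0.0043, Pik3c3 0.47, Atg14 0.036, Ambra1 0.0094, Wipi2 0.10, Atg2b 0.51, Atg3 0.060, Atg4b 0.19, Atg4c 0.042, Atg5 0.18, Atg10 0.21, Atg12 0.044, Atg16l1 0.42 and Map1lc3b 0.031, with medians of 0.034 (36 genes), 0.036 (nucleation), 0.052 (conjugation) and 0.38 (upstream regulators). Upper-quartile scaling gave Atg101 0.044, Pik3c3 0.18, Atg2b 0.22, Atg16l1 0.13 and an upstream median of 0.085. No low-count filter gave Pik3c3 0.052, Atg2b 0.10 and Atg16l1 0.010. Atg2b was 0.025 with TMM without mitochondrial genes, 0.0023 on estimated counts and 0.080 without CD24Neg replicates 2 and 8, where Atg16l1 was 0.021. For the log2 ratio of Atg16l1 over Atg16l2, the difference between group means (CD24Mid minus CD24Neg) was 0.325 in the main setting. It was -0.0026 with shared reads and -0.29 with no length term. The shift of all genes with the scaling is by construction; otherwise the cause was not tested.

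Leaving out 1 library at a time gave 23 to 26 of the 36 genes higher in CD24Neg and 1 to 3 in CD24Mid. Over all 12979 to 13197 genes tested in these fits, 4057 to 4430 were higher in CD24Neg and 4346 to 4797 in CD24Mid. By step, 2 to 4 initiation genes were higher in CD24Neg, and 1 to 2 nucleation genes and 0 to 1 conjugation genes higher in CD24Mid. In the pathway lists, 3 to 5 upstream regulators and 0 to 1 fusion genes were higher in CD24Mid. Of the 26 genes higher in CD24Neg, 23 kept their call without each library. Uvrag was called higher in CD24Mid without CD24Neg replicate 2 (edgeR adjusted p = 0.029) or 4 (edgeR adjusted p = 0.0373). Log2 fold changes ran from -0.11 to 0.045 for Pik3c3, -0.064 to 0.074 for Atg2b and -0.12 to 0.0078 for Atg16l1. No paired analysis was made. The title numbers 1 to 8 are not shared between the groups, so any pairing of CD24Mid with CD24Neg libraries is not known here. Atg10 and Atg16l2, under 5 CPM in both groups, had standard errors of 0.21 and 0.19 (log2), and near-identical copies lose reads in unique counts.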

Other observations

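Rb1cc1 and Tax1bp1 differed among the CD24Mid libraries in the same way: Rb1cc1 was at 26.5 and 28.1 CPM in replicates 1 and 3 and at 48.8 and 49.0 CPM in replicates 5 and 7, and Tax1bp1 was at 162 and 155 against 224 and 212 CPM. Gabarap had the other order, at 148 and 138 CPM against 105 and 105 CPM. The same pairs of CD24Mid libraries were also closest over all genes. Chi-square per degree of freedom between their counts was 20.9 (replicates 1 and 3) and 11.6 (5 and 7). The other CD24Mid pairs were at 32.8 to 39.8. The labels name no batch, and the cause was not tested.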
